A study of Mus musculus with 24 samples.

Results

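A set of 10 genes that act in naive, memory and effector fate of T cells was examined: the transcription regulators Tcf7, Lef1, Klf2, Foxo1, Bach2, Id2, Id3, Prdm1 and Bcl6, and Il7r, the IL-7 receptor alpha chain. They were taken by gene name from the deposited count table of 55401 genes, and 10 of the 10 were found and passed the filter on low counts in CD4 and in CD8 libraries. The study measured poly(A) RNA in 24 libraries, 4 in each of 6 groups, from CD4+ and CD8+ T cells sorted from the spleen of C57BL/6 mice aged 12 weeks. Sorted cells were stimulated with antibodies to CD3 and CD28 for 2 days before RNA was taken. The wild-type group (WT) carried Pou2af1 fl/fl without CD4.Cre, although its title reads Pou2af1+/+. The heterozygous group (Het) carried CD4.Cre and Pou2af1 fl/+, and the knockout group (KO) carried CD4.Cre and Pou2af1 fl/fl. CD4.Cre is active from the stage at which developing T cells express Cd4, so it reaches CD8 cells as well. Loss of the allele and presence of Cre cannot be told apart in the comparisons with WT.

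Naive and memory T cells keep a set of transcription factors that hold back effector differentiation. TCF1 (encoded by Tcf7) and LEF1 keep T cell identity and self-renewal, FOXO1 and KLF2 drive homing and survival genes such as S1pr1, Ccr7 and Il7r, and BACH2 restrains effector genes. ID2 and ID3 block E proteins and are linked with effector and memory precursor fate in turn, while BLIMP1 (encoded by Prdm1) and BCL6 repress each other. Strong activation lowers KLF2 and the IL-7 receptor for a time. Pou2af1 encodes OCA-B, a coactivator that joins POU2F1 and POU2F2 on octamer DNA.

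Since OCA-B acts at the octamer, the RefSeq promoter windows of the 10 genes (15 windows of 300 bases, 250 before to 50 after a start site, GRCm38.p6) were searched on both strands. The octamer ATGCAAAT was in 0 of the 15 windows, and in 1.74% of all 32851 promoters of that length. The TCF/LEF letters ATCAAAG were also in 0 of 15, against 3.73% of all promoters. With shares this low, 0 of 15 does not set these genes apart from other promoters. The windows are not all separate, as windows 1 and 2 of Lef1 overlap. The FOXO letters GTAAACA, in 3.65% of all promoters, were in 2 windows, 1 of Tcf7 and 1 of Prdm1. The 250 bases before the start site are shown for Prdm1, which holds the FOXO letters (in capitals), and for Klf2 and Il7r, whose levels ranged widely between libraries. Klf2 is at chr8:72318812-72319061 on the plus strand, Il7r at chr15:9529877-9530126 and Prdm1 at chr10:44458749-44458998, both on the minus strand.
Klf2: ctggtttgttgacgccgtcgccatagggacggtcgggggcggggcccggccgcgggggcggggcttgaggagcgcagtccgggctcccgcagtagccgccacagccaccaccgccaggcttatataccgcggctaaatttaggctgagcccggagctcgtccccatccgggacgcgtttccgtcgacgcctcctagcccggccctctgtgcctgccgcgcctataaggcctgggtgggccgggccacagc
Il7r: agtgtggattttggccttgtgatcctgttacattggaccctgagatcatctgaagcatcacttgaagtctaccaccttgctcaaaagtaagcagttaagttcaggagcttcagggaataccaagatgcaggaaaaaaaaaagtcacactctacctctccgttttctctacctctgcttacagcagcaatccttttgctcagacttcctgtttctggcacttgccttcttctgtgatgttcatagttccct
Prdm1: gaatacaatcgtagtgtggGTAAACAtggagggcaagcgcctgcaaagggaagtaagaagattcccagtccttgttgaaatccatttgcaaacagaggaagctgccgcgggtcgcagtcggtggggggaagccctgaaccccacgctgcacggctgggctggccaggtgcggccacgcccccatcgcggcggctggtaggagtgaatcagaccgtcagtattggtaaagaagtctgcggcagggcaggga
The windows differ in base composition: G and C make up 71.2% of the Klf2 stretch, 59.2% of that of Prdm1 and 44% of that of Il7r. A match is a match of letters only, and no binding was measured.

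Library totals ran from 11.9 to 21.8 megacounts. Levels are given as CPM (counts scaled to a library total adjusted by its TMM factor), and 3 counts correspond to 0.138 to 0.251 CPM. The targeted gene followed the labels: Pou2af1 averaged 38.4 ± 10.9 CPM (SD, n = 4) in CD4 WT, 20.2 ± 4.28 in CD4 Het and 2.19 ± 1.11 in CD4 KO, and 27.7 ± 6.18, 15.5 ± 1.40 and 1.71 ± 0.750 in CD8 cells. CD4 lineage markers (Cd4, Zbtb7b, Cd40lg) summed to 654 to 786 CPM in CD4 and 4.76 to 18.2 CPM in CD8 libraries, and CD8 lineage markers (Cd8a, Cd8b1, Runx3) to 1032 to 1163 CPM in CD8 and 58.5 to 80.4 CPM in CD4 libraries. B cell markers summed to 6.14 to 30.7 CPM and neutrophil markers to at most 0.142 CPM. Over the 12 libraries of a cell type, those numbered 1 and 2 did not overlap those numbered 3 and 4 for 14.5% of genes in CD4 and 9.24% in CD8 cells. Where the 6 libraries of one kind in a cell type did not overlap the 6 of the other is given below, since the labels used here name no batch or date for these numbers. By Xist against a single Y-linked gene, 1 of 4 WT, 2 of 4 Het and 1 of 4 KO replicates came from females in either cell type. The female replicates were number 3 in WT, 1 and 2 in Het and 2 in KO.

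None of the 10 genes was called in any of the 6 comparisons between genotypes. The test was edgeR's quasi-likelihood F test, with a call at a Benjamini-Hochberg adjusted p under 0.05 over all genes tested. The background share of genes called was 0.0708% for KO against WT in CD4 cells, 0.0865% for Het against WT and 0.0157% for KO against Het. In CD8 cells the same shares were 0.0634%, 0.0634% and 0.0159%, so that 0 of 10 lies at the background. In CD4 KO against WT the log2 changes of the 10 genes lay between -0.12 (Lef1) and 0.18 (Bcl6), and in CD8 KO against WT between -0.20 (Prdm1) and 0.43 (Bcl6). Their median was -0.04 in CD4 and -0.02 in CD8 cells, beside -0.01 and 0.00 over all genes tested. Standard errors in these 2 comparisons ran from 0.08 to 0.70 on the log2 scale in CD4 and 0.11 to 0.50 in CD8, so a change of Klf2 as large as its standard error of 0.70 in CD4 cells was not detectable. DESeq2 also called 0 of the 10 in all 6 comparisons. At an unadjusted p under 0.05, 0 of 10 passed in either KO against WT comparison, where 2.44% (CD4) and 2.89% (CD8) of all genes did.

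**Figure D1:**
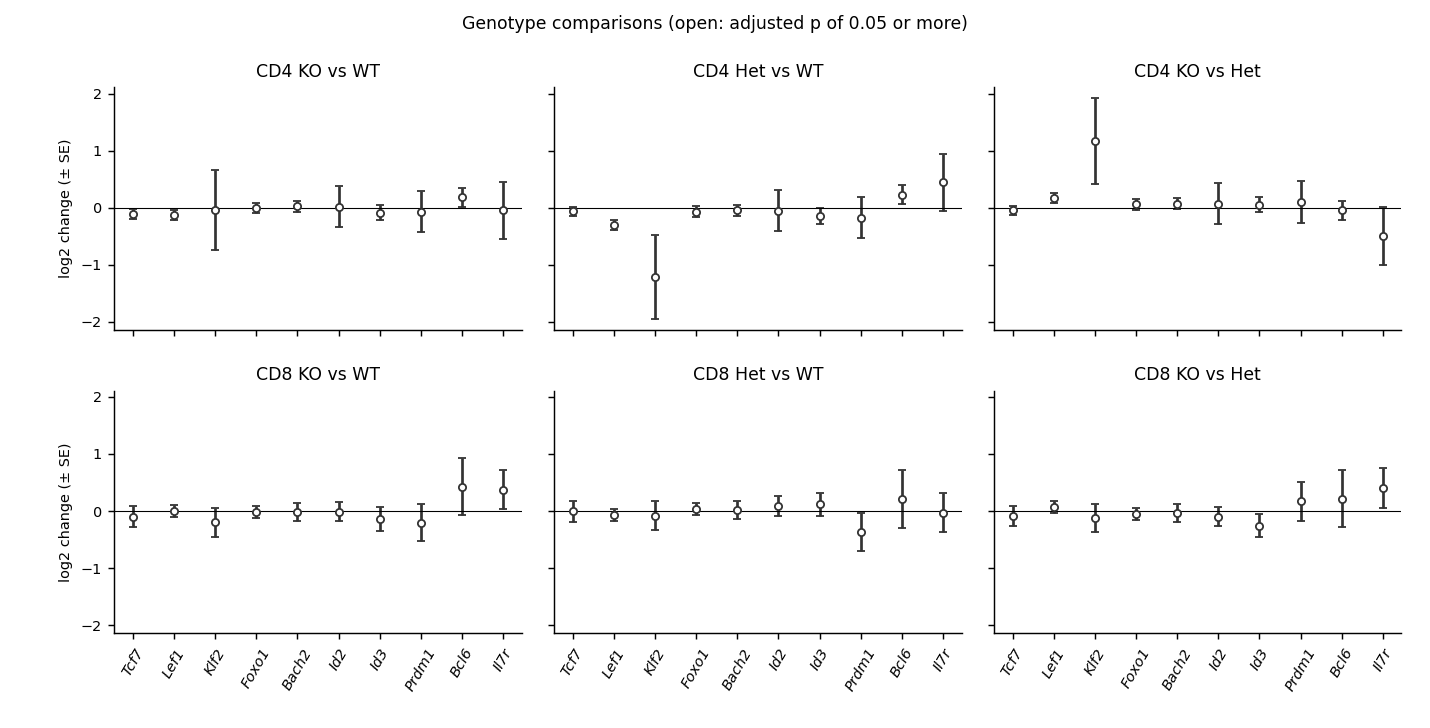
Log2 changes (y axis, with SE) of the 10 genes (x axis) in the 6 genotype comparisons, CD4 cells above and CD8 cells below, each from 4 against 4 libraries. All 60 symbols are open, for an adjusted p of 0.05 or more, and the widest bars belong to Klf2 in CD4 cells.

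Lef1 in CD4 Het cells was the 1 case at an unadjusted p under 0.05, a share of members near the 8.68% of all genes in that comparison. Lef1 (chr3:131110471-131224356, plus strand, GRCm38) stood at 124, 127, 157 and 132 CPM in WT replicates 1 to 4, at 118, 117, 107 and 100.3 in Het and at 119, 113, 138 and 131 in KO. Every CD4 Het library lay below every CD4 WT library, as did 2.48% of all genes, and the KO libraries overlapped both. The log2 change of Het against WT was -0.30 (SE 0.09), with an edgeR unadjusted p of 0.00581 and an adjusted p of 0.386. In CD8 cells it was -0.07 (SE 0.11), and the difference of the 2 changes did not pass (log2 0.22 (SE 0.14), edgeR adjusted p 1.00). With the replicate kind (1 and 2 or 3 and 4) and the sex as covariates, a fit that called 3.86% of all genes, Lef1 (log2 -0.33, adjusted p 0.0200) and Il7r (log2 0.97, adjusted p 0.0184) were called in CD4 Het against WT by edgeR. Of the 19 alternatives for this comparison, only that fit called either gene, and the fit with the replicate kind alone as covariate called neither. Within CD4 Het, sex and replicate kind are the same split, with replicates 1 and 2 female and 3 and 4 male. In the fit with both covariates, only the WT and KO libraries, with 1 female in each group, tell them apart. None of the 10 genes was called in the 3 tests of whether a genotype change differed between CD8 and CD4 cells, where 0.00753%, 0.00753% and 0% of all genes were.

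Between cell types the same genes differed widely, by edgeR with all 24 libraries in 1 fit. In WT cells 3 of 10 rose in CD8 against CD4 (Id2, Prdm1 and Il7r) and 3 fell (Lef1, Bach2 and Id3), where 31.2% of all genes were called, 14.7% higher and 16.6% lower. In Het cells 5 rose (Tcf7, Klf2, Id2, Prdm1 and Il7r) and 2 fell (Bach2 and Id3), against a background of 34.9%, 17.1% higher and 17.8% lower. In KO cells the 3 that rose and the 3 that fell were those of WT, against 24.1% of all genes, 11% higher and 13% lower. Id2, Prdm1, Il7r, Bach2 and Id3 were called in all 3 genotypes, and each moved in 1 direction in all of them. The groups did not overlap for 5 of 10 genes in WT, 8 of 10 in Het and 4 of 10 in KO cells, beside 31.2%, 38.3% and 20.9% of all genes. Other fits are quoted gene by gene below: with replicates 1 and 2 alone they called 33.6% of all genes in WT, 30.6% in Het and 24.5% in KO cells, with replicates 3 and 4 alone 21.1%, 29.3% and 19.8%, and with the replicate number as a block 40.2% in Het. The median log2 change of the 10 was 0.22, 0.30 and 0.22 in WT, Het and KO, and -0.02, 0.01 and 0.00 over all genes. In bulk RNA such as this, a smaller share of cells expressing a gene and less RNA per cell cannot be told apart.

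**Figure D2:**
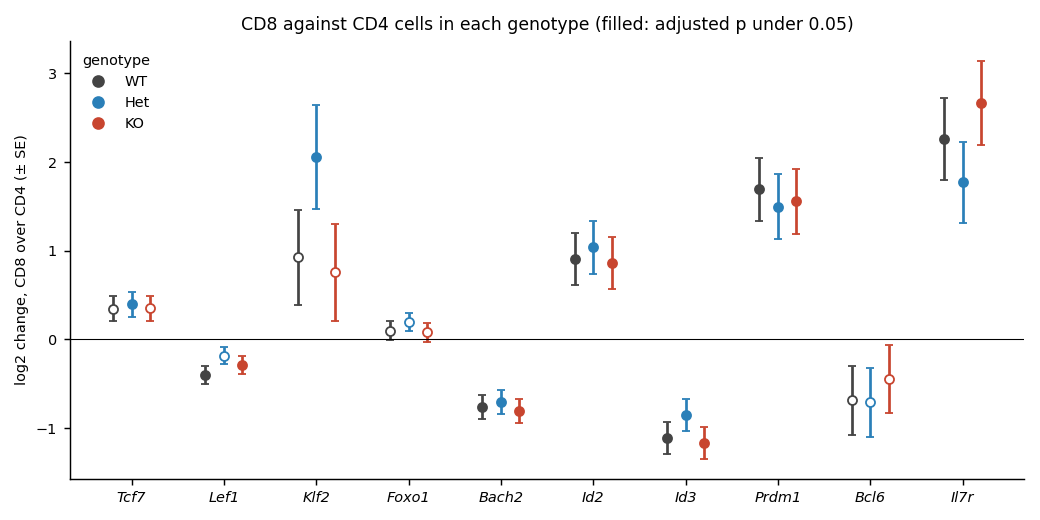
Log2 change of CD8 over CD4 cells (y axis, with SE) for the 10 genes (x axis), in WT, Het and KO, each from 4 against 4 libraries. Filled symbols passed an adjusted p of 0.05: Prdm1, Il7r and Id2 lie above 0 and Bach2 and Id3 below 0 in the 3 genotypes.

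Tcf7 (chr11:52252371-52283331, minus strand), which encodes TCF1, stood in the CD4 libraries at 203, 237, 268 and 227 CPM in WT replicates 1 to 4, at 217, 218, 218 and 248 in Het and at 212, 210.1, 236 and 214 in KO. In the CD8 libraries it stood at 329, 314, 292 and 255 CPM in WT replicates 1 to 4, at 344, 362, 254 and 227 in Het and at 305, 355, 229.6 and 222 in KO. The 6 CD8 libraries numbered 1 and 2 lay above all CD4 libraries, and those numbered 3 and 4 overlapped them. CD8 over CD4, the log2 change was 0.35 (SE 0.14, adjusted p 0.0678) in WT, 0.40 (SE 0.14, adjusted p 0.0347) in Het and 0.35 (SE 0.14, adjusted p 0.0788) in KO cells by edgeR. With replicates 1 and 2 alone Tcf7 was called in WT (log2 0.55, adjusted p 0.000348) and in KO (0.65, adjusted p 0.000128), and it remained called in Het (0.70, adjusted p 5.38e-05). With replicates 3 and 4 alone it was called in no genotype, at 0.14 in WT (adjusted p 0.396), 0.04 in Het (adjusted p 0.834) and 0.01 in KO (adjusted p 0.969). The Het call was also lost with the replicate number as a block (log2 0.37, adjusted p 0.0521). It was lost without CD4 Het replicate 1 (adjusted p 0.0810), 2 (0.0775) or 3 (0.0771) and without CD8 Het replicate 1 (0.124) or 2 (0.150). Conversely, Tcf7 was called by edgeR in WT without CD8 WT replicate 4 (adjusted p 0.0487), and in KO without CD8 KO replicate 3 (0.0382) or 4 (0.0369). It was also called in WT with the replicate kind as covariate (adjusted p 0.0419) and with the 8 WT libraries alone (0.0315). A fit with that covariate in each cell type, chosen after seeing the data, takes the difference at the level of replicates 1 and 2. It called Tcf7 in WT (adjusted p 1.26e-05) and KO (1.7e-05).

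Lef1 encodes the partner of TCF1 that binds the same DNA letters. Its CD4 values are given above, and in the CD8 libraries it stood at 101, 107, 95.3 and 106 CPM in WT replicates 1 to 4, at 106, 112, 93.4 and 79.6 in Het and at 107, 114, 97.7 and 91.3 in KO. CD8 WT libraries lay below all CD4 WT libraries. The log2 change was -0.40 (SE 0.10, adjusted p 0.00401) in WT, -0.18 (SE 0.10, adjusted p 0.166) in Het and -0.28 (SE 0.10, adjusted p 0.0400) in KO cells by edgeR. The KO call was lost in 10 of 19 alternatives, with replicates 1 and 2 alone at -0.06 (adjusted p 0.536). Leaving out any of 6 single libraries also ended it: CD4 KO replicate 1 (adjusted p 0.0518), 3 (0.126) or 4 (0.0959), or CD8 KO replicate 1 (0.0582), 3 (0.116) or 4 (0.136). The log2 ratio of Tcf7 to Lef1 averaged 0.79, 1.03 and 0.81 in CD4 WT, Het and KO and 1.53, 1.59 and 1.42 in CD8 WT, Het and KO. Over the 12 libraries of each cell type the ratio ran from 0.71 to 1.31 in CD4 and from 1.23 to 1.70 in CD8, with an overlap of CD4 Het replicate 4 alone. Lef1 shares 1208 exon bases with the antisense gene Gm43352, which held 281 counts over all 24 libraries, and the strand setting of the counts is not given in the sources used here.

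The TCF/LEF family and corepressors list held 11 genes, 8 of them tested. In CD8 against CD4 WT cells 2 rose and 2 fell, in Het 3 and 3, and in KO 2 and 2. These are 50%, 75% and 50% of the 8, beside 31.2%, 34.9% and 24.1% of all genes, shares that also stand behind the lists below. Among them the corepressors Tle4 (log2 0.79 (SE 0.18)) and Tle5 (0.19 (SE 0.06)) rose in WT, and Tle3 (-0.68 (SE 0.13)) and the HMG-box factor Sox4 (-1.38 (SE 0.19)) fell. The corepressor genes did not all move one way. The median log2 change of the list was -0.23 in WT, 0.22 in Het and -0.17 in KO cells, beside -0.02, 0.01 and 0.00 for all genes.

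Klf2 (chr8:72319033-72321656, plus strand) encodes the quiescence factor that activates S1pr1. It stood in the CD4 libraries at 1.95, 2.33, 12.2 and 9.53 CPM in WT replicates 1 to 4, at 1.70, 2.40, 4.07 and 3.32 in Het and at 1.95, 1.59, 15.4 and 6.64 in KO. The 6 CD4 libraries numbered 1 and 2 (1.59 to 2.40 CPM) all lay below the 6 numbered 3 and 4 (3.32 to 15.4 CPM), and among the latter the 2 Het libraries were the lowest. Across the CD8 libraries it stood at 12.3, 12.0, 8.80 and 16.7 CPM in WT replicates 1 to 4, at 10.4, 11.8, 17.9 and 7.26 in Het and at 12.7, 10.01, 9.99 and 10.7 in KO, and the CD8 libraries of the 2 kinds overlapped. Counts behind these values were 21 to 212 in the CD4 and 104 to 243 in the CD8 libraries. The log2 change of CD8 over CD4 was 0.92 (SE 0.54, adjusted p 0.201) in WT, 2.05 (SE 0.59, adjusted p 0.00905) in Het and 0.76 (SE 0.55, adjusted p 0.347) in KO cells by edgeR. With replicates 1 and 2 alone it was 2.51 in WT (adjusted p 2.6e-06) and 2.68 in KO (adjusted p 2.5e-06), both called. With replicates 3 and 4 alone it was 0.23 in WT (adjusted p 0.742) and -0.11 in KO (adjusted p 0.893), neither called. Without CD4 KO replicate 3, the highest CD4 library, the KO change was 1.70 (adjusted p 0.0270). The call in Het cells was kept in 19 of 19 alternatives.

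Foxo1 (chr3:52268336-52353221, plus strand) encodes the factor that AKT signalling moves out of the nucleus. It stood in the CD4 libraries at 105, 109.6, 135 and 136 CPM in WT replicates 1 to 4, at 112, 112, 124 and 119.8 in Het and at 119, 107, 132 and 129 in KO. CD8 cells held it at 123, 119.9, 139 and 139 CPM in WT replicates 1 to 4, at 133, 131, 133 and 138 in Het and at 106, 110.1, 145 and 153 in KO. Replicates 3 and 4 lay above replicates 1 and 2 in CD4 cells (119.8 to 136 against 105 to 118.5 CPM) and, by a narrow margin, in CD8 cells (133.2 to 153 against 106 to 133.1 CPM). The log2 change of CD8 over CD4 was 0.10 (SE 0.11, adjusted p 0.512) in WT, 0.20 (SE 0.11, adjusted p 0.158) in Het and 0.08 (SE 0.11, adjusted p 0.641) in KO cells by edgeR, the smallest of the 10 in WT and KO. CD8 Het libraries all lay above CD4 Het libraries, and 5 of 19 alternatives called the Het difference by edgeR. Blocked on replicate number it was called at log2 0.20 (adjusted p 0.0228), and with the replicate kind as covariate at 0.20 (adjusted p 0.0160). With that covariate in each cell type the adjusted p was 0.0424. Replicates 1 and 2 alone gave 0.0141 and the 8 Het libraries alone 0.0129. Foxo1 shares 674 exon bases with Gm20402, which held 33 counts in all.

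Of 10 other KLF and FOXO family genes, 2 rose and 3 fell in CD8 against CD4 WT cells, 3 and 5 in Het and 2 and 3 in KO (50%, 80% and 50% called). The repressor Klf3 fell by 1.10 (SE 0.15), Klf4 by 1.84 (SE 0.34) and Foxp1, a repressor that competes with FOXO1, by 0.24 (SE 0.05) on the log2 scale, while the TGF-beta-induced Klf10 rose by 0.84 (SE 0.19). Of 14 known KLF2 and FOXO1 target genes, 3 rose and 2 fell in WT, 4 and 1 in Het and 5 and 1 in KO. At 35.7%, 35.7% and 42.9% called, the target list lay near the share of all genes (31.2%, 34.9% and 24.1%) in WT and Het. The egress receptor S1pr1 rose by 1.27 (SE 0.29) in WT, the PI3K inhibitor Pik3ip1 by 1.03 (SE 0.22) and Gabarapl1, an autophagy gene, by 0.61 (SE 0.10), and the antiproliferative Btg1 fell by 0.36 (SE 0.11). The homing receptor gene Ccr7 (-0.66 (SE 0.28, adjusted p 0.0790)), chosen after its values were seen, did not pass in WT by edgeR. S1pr1 stood in the CD4 libraries at 2.69, 2.68, 5.20 and 4.25 CPM in WT replicates 1 to 4, at 2.30, 3.40, 2.29 and 4.81 in Het and at 2.45, 2.05, 6.04 and 4.29 in KO. In WT and KO it was higher in replicates 3 and 4, as Klf2 was. Ccr7 stood at 784, 846, 417 and 492 CPM in WT replicates 1 to 4, at 682, 748, 580.4 and 569 in Het and at 834, 749, 439.9 and 447 in KO, and was lower there in replicates 3 and 4 of each genotype.

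Bach2 (chr4:32238804-32586108, plus strand), which encodes a repressor that competes with AP-1 factors, stood in the CD4 libraries at 317, 309, 282 and 272 CPM in WT replicates 1 to 4, at 328, 312, 260.1 and 251 in Het and at 304, 336, 288 and 276 in KO. In the CD8 libraries it stood at 196, 185, 146 and 170.1 CPM in WT replicates 1 to 4, at 190.2, 196, 183 and 136 in Het and at 183, 223, 146 and 137 in KO. No CD8 library reached any CD4 library. The log2 change was -0.76 (SE 0.14, adjusted p 0.000213) in WT, -0.71 (SE 0.14, adjusted p 0.000351) in Het and -0.81 (SE 0.14, adjusted p 0.000133) in KO cells by edgeR, and the call was kept in 19 of 19 alternatives in each genotype. Within CD4 cells replicates 1 and 2 (304 to 336 CPM) lay above replicates 3 and 4 (251 to 288 CPM). Bach2 shares 537 exon bases with the antisense gene Bach2os, which held 103 counts in all.

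Prdm1 (chr10:44437177-44528501, minus strand), which encodes BLIMP1, the repressor that drives terminal effector differentiation, was the scarcest of the 10. It stood in the CD4 libraries at 0.471, 0.845, 1.495 and 1.17 CPM in WT replicates 1 to 4, at 0.969, 0.867, 1.04 and 0.664 in Het and at 0.505, 0.910, 1.02 and 1.43 in KO, from 7 to 26 counts. CD8 cells held it at 2.49, 2.53, 2.81 and 5.16 CPM in WT replicates 1 to 4, at 2.01, 2.12, 3.83 and 2.17 in Het and at 2.23, 1.67, 3.19 and 4.28 in KO, from 24 to 75 counts. Every CD8 library lay above every CD4 library. The log2 change was 1.69 (SE 0.35, adjusted p 0.000954) in WT, 1.497 (SE 0.37, adjusted p 0.00315) in Het and 1.56 (SE 0.37, adjusted p 0.00306) in KO cells by edgeR, and it was kept in 18 of 18 alternatives in each genotype. A filter at a mean of 5 CPM leaves Prdm1 out.

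Bcl6 (chr16:23965052-23988852, minus strand), which encodes the repressor of Prdm1 that follicular helper cells need, stood in the CD4 libraries at 10.5, 11.5, 7.12 and 7.90 CPM in WT replicates 1 to 4, at 10.1, 11.3, 12.6 and 9.54 in Het and at 9.89, 13.3, 9.31 and 9.67 in KO. In the CD8 libraries it stood at 7.78, 6.49, 3.57 and 5.23 CPM in WT replicates 1 to 4, at 8.40, 9.46, 5.63 and 3.14 in Het and at 8.50, 16.0, 2.83 and 3.52 in KO. CD8 libraries numbered 1 and 2 (6.49 to 16.0 CPM) all lay above those numbered 3 and 4 (2.83 to 5.63 CPM), and CD8 KO replicate 2 was the highest of all 24. The log2 change was -0.68 (SE 0.39, adjusted p 0.191) in WT, -0.71 (SE 0.39, adjusted p 0.164) in Het and -0.45 (SE 0.38, adjusted p 0.439) in KO cells by edgeR. With the replicate number as a block Bcl6 was called in Het (log2 -0.76, adjusted p 0.0399). With replicates 3 and 4 alone it was called in Het (-1.35, adjusted p 0.00409) and KO (-1.57, adjusted p 0.00274). With replicates 1 and 2 alone it was called in neither (Het -0.26, adjusted p 0.479, and KO 0.07, adjusted p 0.868). It was also called without CD8 KO replicate 2 in KO (-1.07, adjusted p 0.0268). The log2 ratio of Bcl6 to Prdm1 averaged 3.31 ± 1.00 (SD, n = 4) in CD4 WT, 3.63 ± 0.19 in Het and 3.53 ± 0.68 in KO, and 0.84 ± 0.78, 1.33 ± 0.90 and 1.18 ± 1.72 in CD8 cells. It ran from 2.25 to 4.48 over the CD4 libraries, from 1.36 to 3.26 over CD8 replicates 1 and 2 and from -0.28 to 0.56 over CD8 replicates 3 and 4, so that Bcl6 counts stood near those of Prdm1 in the last of these. The ratio of Tcf7 to Prdm1 averaged 7.99, 8.01 and 7.91 in CD4 and 6.58, 6.90 and 6.68 in CD8 WT, Het and KO.

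**Figure D3:**
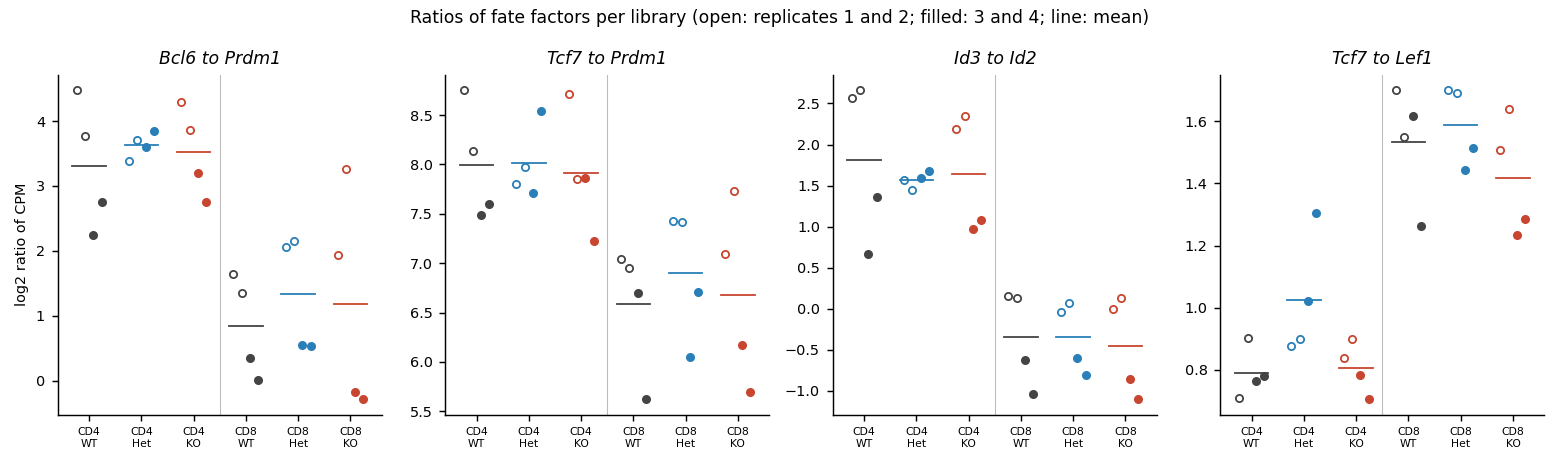
Log2 ratio of counts (y axis) of Bcl6 to Prdm1, Tcf7 to Prdm1, Id3 to Id2 and Tcf7 to Lef1 in each of 24 libraries, with the mean of 4 per group as a line. The Id3 to Id2 panel separates the cell types, with CD4 libraries from 0.67 to 2.66 and CD8 libraries from -1.10 to 0.15.

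Of 15 genes listed as BACH partners and for the BLIMP1/BCL6 axis, 3 rose and 6 fell in CD8 against CD4 WT cells, 1 and 8 in Het and 3 and 4 in KO (60%, 60% and 46.7% called, beside 31.2%, 34.9% and 24.1% of all genes). Maf fell by 2.76 (SE 0.45) on the log2 scale from 1.13 CPM in CD4 WT. Irf4, which activates Prdm1 in effector cells, fell by 0.68 (SE 0.11) while Prdm1 rose. Bhlhe40, a repressor induced by activation, fell by 1.38 (SE 0.26), and the AP-1 factor Batf3 rose by 3.32 (SE 0.69).

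Id2 (chr12:25093799-25097140, minus strand) stood in the CD4 libraries at 7.53, 10.6, 26.8 and 19.0 CPM in WT replicates 1 to 4, at 14.5, 15.5, 17.3 and 14.9 in Het and at 12.0, 9.48, 23.7 and 20.2 in KO. Across the CD8 libraries it stood at 23.2, 26.8, 35.4 and 34.2 CPM in WT replicates 1 to 4, at 32.7, 28.9, 30.5 and 35.7 in Het and at 24.2, 22.8, 35.6 and 36.3 in KO. CD4 replicates 3 and 4 were higher than replicates 1 and 2 in WT and KO and not in Het, where the 4 values lay between 14.5 and 17.3 CPM. The log2 change of CD8 over CD4 was 0.90 (SE 0.29, adjusted p 0.0233) in WT, 1.04 (SE 0.30, adjusted p 0.00909) in Het and 0.86 (SE 0.30, adjusted p 0.0369) in KO cells by edgeR. The Het groups did not overlap, and the WT and KO groups did. The WT call was lost without CD4 WT replicate 1 (adjusted p 0.0756) or 2 (0.0764) and without CD8 WT replicate 3 (0.0662) or 4 (0.0532). The KO call was lost without CD4 KO replicate 1 (adjusted p 0.110) or 2 (0.121) and without CD8 KO replicate 3 (0.0902) or 4 (0.102). Fits of the 8 libraries of 1 genotype alone also lost both (adjusted p 0.0766 in WT and 0.0693 in KO).

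Id3 (chr4:136143497-136145755, plus strand) moved the other way. It stood in the CD4 libraries at 44.6, 67.0, 42.6 and 48.8 CPM in WT replicates 1 to 4, at 43.1, 42.5, 52.0 and 47.5 in Het and at 54.9, 48.3, 46.3 and 42.6 in KO. In the CD8 libraries it stood at 25.7, 29.2, 22.9 and 16.6 CPM in WT replicates 1 to 4, at 31.7, 30.4, 20.1 and 20.3 in Het and at 24.2, 24.9, 19.6 and 16.9 in KO. No CD8 library reached any CD4 library, and CD8 replicates 1 and 2 (24.2 to 31.7 CPM) lay above CD8 replicates 3 and 4 (16.6 to 22.9 CPM). The log2 change was -1.11 (SE 0.18, adjusted p 7.09e-05) in WT, -0.85 (SE 0.18, adjusted p 0.000827) in Het and -1.16 (SE 0.18, adjusted p 4.84e-05) in KO cells by edgeR, and it was kept in 19 of 19 alternatives in each genotype. The log2 ratio of Id3 to Id2 averaged 1.82 ± 0.97 (SD, n = 4) in CD4 WT, 1.57 ± 0.09 in Het and 1.65 ± 0.73 in KO. In CD8 cells it averaged -0.35 ± 0.59, -0.35 ± 0.43 and -0.46 ± 0.61. Id3 counts thus exceeded Id2 counts in 12 of 12 CD4 libraries, while in CD8 cells the ratio lay between -0.04 and 0.15 in replicates 1 and 2 and between -1.10 and -0.60 in replicates 3 and 4. Of the 5 other ID and E protein genes, 3 were tested and Id1 and Id4 were too low. The E protein genes Tcf3 (0.32 (SE 0.09)) and Tcf12 (0.26 (SE 0.10)) rose in CD8 WT cells on the log2 scale, and Tcf4 fell by 1.09 (SE 0.40). In Het 2 rose and 1 fell, and in KO 2 rose. These calls are 100%, 100% and 66.7% of the 3 genes in WT, Het and KO, beside 31.2%, 34.9% and 24.1% of all genes.

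Il7r (chr15:9505788-9530176, minus strand), the receptor chain that carries the IL-7 survival signal, showed the largest log2 change of the 10 between cell types in WT and KO. It stood in the CD4 libraries at 46.7, 39.2, 9.75 and 13.6 CPM in WT replicates 1 to 4, at 40.1, 38.6, 38.9 and 31.95 in Het and at 47.4, 29.7, 9.17 and 19.8 in KO. Across the CD8 libraries it stood at 169, 136, 82.9 and 134 CPM in WT replicates 1 to 4, at 127, 160.4, 146 and 78.5 in Het and at 186, 287, 83.9 and 119 in KO. Every CD8 library lay above every CD4 library. The log2 change was 2.26 (SE 0.47, adjusted p 0.00082) in WT, 1.77 (SE 0.46, adjusted p 0.00435) in Het and 2.67 (SE 0.47, adjusted p 0.00021) in KO cells by edgeR, and it was kept in 19 of 19 alternatives in each genotype. Over these alternatives it ran from 1.83 to 3.20 in WT, 1.52 to 1.95 in Het and 2.30 to 3.11 in KO.

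In CD4 cells Klf2, Id2 and Il7r differed between the 2 kinds of replicate in WT and KO more than in Het. Replicates 3 and 4 held 5.09 times the Klf2 CPM of replicates 1 and 2 in WT, 6.23 times in KO and 1.80 times in Het. For Id2 the ratios were 2.53, 2.05 and 1.07, and for Il7r 0.272, 0.375 and 0.900, in WT, KO and Het. In replicates 3 and 4 alone, Il7r was 1.59 higher in CD4 Het than in WT on the log2 scale (edgeR adjusted p 0.0581), Klf2 was 1.54 lower (log2 -1.54, adjusted p 0.102) and Lef1 was lower (log2 -0.48, adjusted p 0.0705), and none passed. In replicates 1 and 2 alone the log2 changes were -0.13, -0.07 and -0.10 for Il7r, Klf2 and Lef1, and Id2 was higher in Het by 0.73 (edgeR adjusted p 0.0625). In these libraries the Het replicates 1 and 2 were female and 3 and 4 male, so sex and the kind of replicate cannot be told apart within Het. Among replicates 3 and 4 of the other genotypes, WT replicate 3 was female, and WT replicate 4 and both KO libraries were male. A part of sex in the pattern was not tested. Marker genes of other cells were set beside this. Of the 4 regulatory T markers, Foxp3, their lineage factor, stood in the CD4 libraries at 0.874, 1.34, 5.34 and 2.62 CPM in WT replicates 1 to 4, at 0.848, 2.13, 2.81 and 2.24 in Het and at 0.505, 0.986, 4.44 and 3.45 in KO. Its ratio of replicates 3 and 4 to replicates 1 and 2 was 3.597 in WT, 5.29 in KO and 1.69 in Het. Across the CD8 libraries the Foxp3 ratio was 4.41, 6.37 and 6.57 in WT, KO and Het, where that of Klf2 was 1.05, 0.91 and 1.13. The CD8 Het ratio of Foxp3 rests on replicate 4, at 5.31 CPM against 0.450 in replicate 3. In CD4 cells Ikzf2 had ratios of 1.43, 1.53 and 1.51, Il2ra of 1.27, 1.03 and 1.03 and Ctla4 of 0.595, 0.775 and 0.947. The 4 summed to 1636 to 1885 CPM in WT, 1521 to 1687 in KO and 1484 to 1571 in Het, with 0 of 4 at 0. The summed plasma cell markers, mostly Sdc1, had ratios of 4.30, 2.77 and 1.90 at means of 0.685 to 2.95 CPM, and B cell markers ratios of 2.21, 1.38 and 0.571, in WT, KO and Het. The part of these cells in the result, and what sets the 2 kinds of replicate apart, was not tested.

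**Figure D4:**
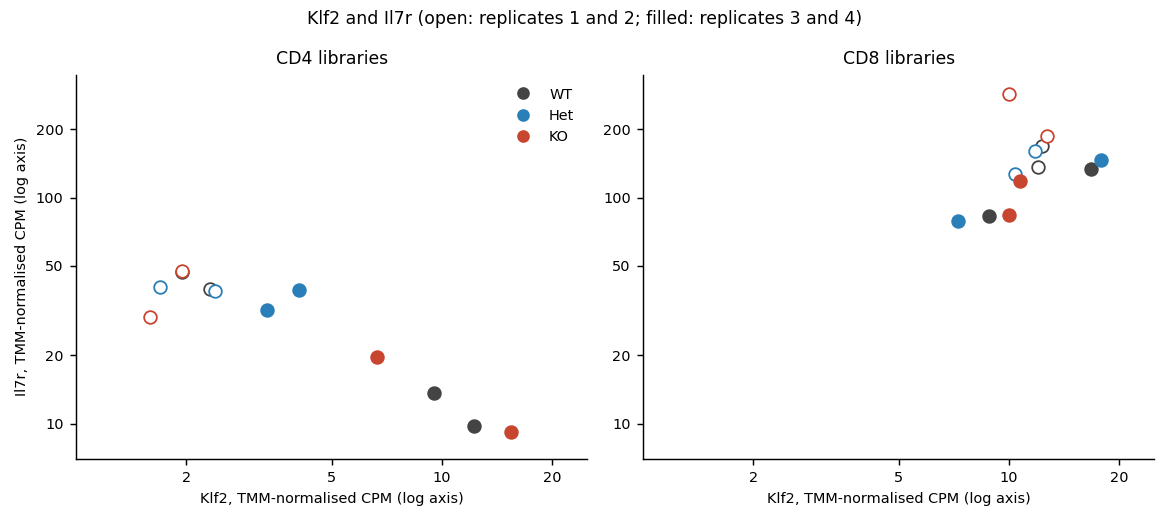
Klf2 against Il7r in CPM, both on log axes, for the 12 CD4 libraries (left) and the 12 CD8 libraries (right), open for replicates 1 and 2. In CD4 cells the 4 filled WT and KO points combine 6.64 to 15.4 CPM of Klf2 with 9.17 to 19.8 CPM of Il7r, while the 2 filled Het points lie at 3.32 and 4.07 CPM of Klf2 and 31.95 and 38.9 CPM of Il7r.

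Over all 3 genotypes, 3 of 10 members did not overlap between replicates 1 and 2 and replicates 3 and 4 in CD4 cells (Klf2 and Foxo1 higher and Bach2 lower in 3 and 4), where 14.5% of all genes did not. In CD8 cells 4 of 10 did not overlap (Foxo1 higher and Tcf7, Id3 and Bcl6 lower in 3 and 4), where 9.24% of all genes did not. Foxo1 was thus the member with no overlap in the same direction in both cell types. Mean Bcl6 in CD8 replicates 3 and 4 was 0.423 times, and mean Tcf7 0.736 times, that in replicates 1 and 2.

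**Figure D5:**
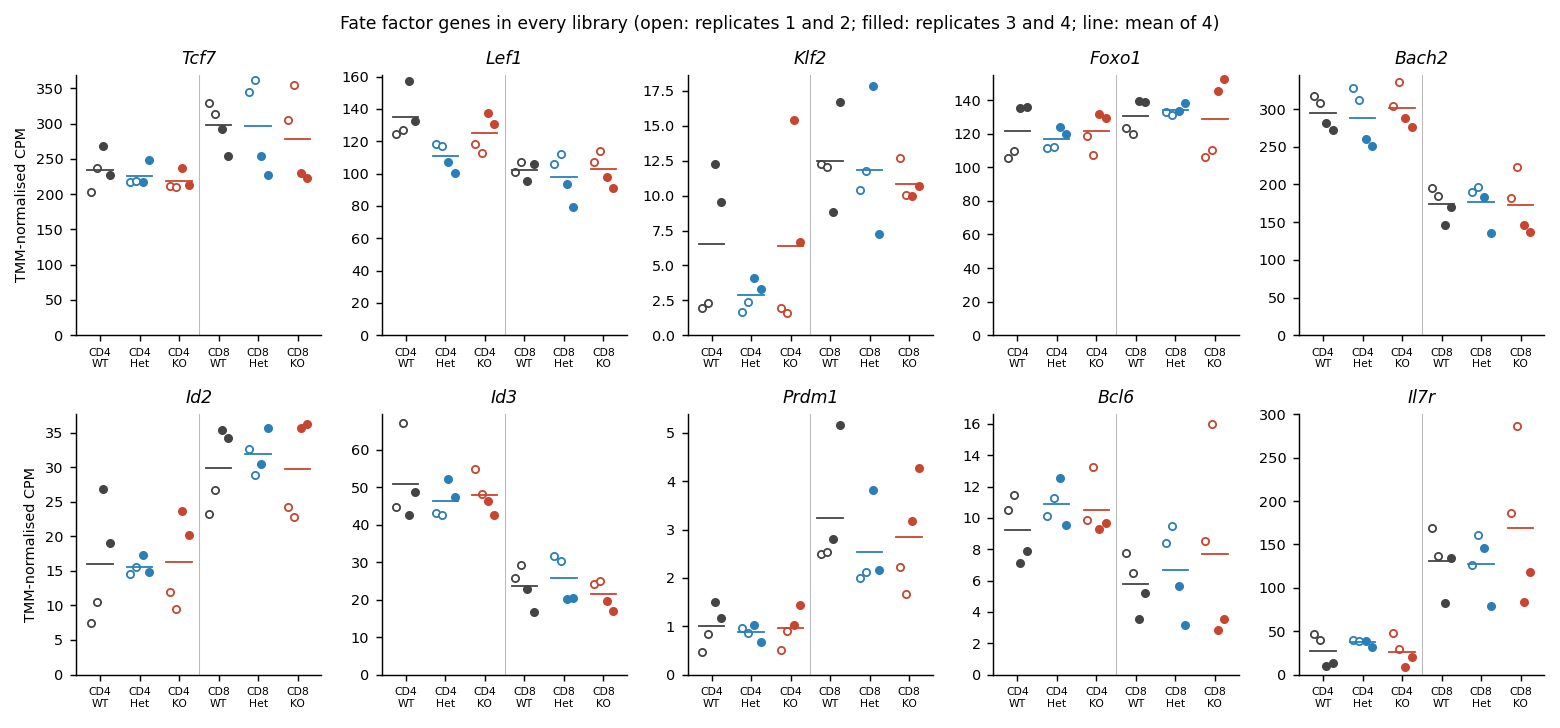
TMM-normalised CPM (y axis, from 0) of each of the 10 genes in every library of the 6 groups (x axis), open for replicates 1 and 2, with the mean of 4 as a line. Bach2, Id3, Prdm1 and Il7r separate CD4 from CD8 libraries with no overlap, while the 3 genotypes of a cell type overlap in each panel except Lef1 in CD4 Het against WT.

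Of the 14 listed genes of the IL-7 receptor pathway, 4 rose and 4 fell in CD8 against CD4 WT cells, 3 and 4 in Het and 4 and 2 in KO (57.1%, 50% and 42.9% called, beside 31.2%, 34.9% and 24.1% of all genes). Runx1, a regulator of Il7r, fell by 2.00 (SE 0.09) and the cytokine-induced inhibitor Cish by 0.93 (SE 0.23). Ets1, an activator of Il7r in CD8 cells, rose by 0.47 (SE 0.10) and Stat5b, which carries the receptor's signal, fell by 0.28 (SE 0.07). Of 18 effector and memory fate regulators, 17 were tested. In WT 4 rose and 7 fell, in Het 4 and 9 and in KO 4 and 7 (64.7%, 76.5% and 64.7%). Runx1, which is in both lists, fell most clearly, followed by Gata3, which fell by 1.20 (SE 0.15) and Nr4a1, which fell by 1.02 (SE 0.15), while Ikzf2 rose by 1.90 (SE 0.26).

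Between genotypes none of the 86 listed pathway genes was called by edgeR in any comparison, nor in the 3 tests of a difference between cell types. In CD8 KO against WT, 78 were tested, and 1 reached an unadjusted p under 0.05 (beside 2.89% of all genes), Klf4 (log2 0.72 (SE 0.28, adjusted p 0.987), by edgeR). In CD4 Het against WT, 14 of 79 (17.7%) had such a p, beside 8.68% of all genes, and Cdkn1b, a cell cycle inhibitor and FOXO target, was nearest to a call (log2 -0.29 (SE 0.05, adjusted p 0.118)).

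Levels per kilobase of exon rank the 10 genes within a cell type. In CD4 cells Tcf7 led with 86.0 ± 7.07 CPM per kilobase (SD, n = 12 libraries of 3 genotypes). Bach2 (29.6 ± 2.72), Id3 (27.0 ± 3.95), Lef1 (14.1 ± 1.72), Foxo1 (13.9 ± 1.28), Id2 (6.55 ± 2.37), Il7r (6.52 ± 2.99), Klf2 (2.85 ± 2.54), Bcl6 (1.53 ± 0.26) and Prdm1 (0.170 ± 0.057) followed in CPM per kilobase. Neighbours whose ranges did not overlap were Tcf7 and Bach2, Id3 and Lef1, Foxo1 and Id2, and Bcl6 and Prdm1. In CD8 cells the order was Tcf7 (111 ± 19.7), Il7r (30.5 ± 12.2), Bach2 (17.5 ± 2.76), Foxo1 (15.1 ± 1.60), Id3 (13.2 ± 2.83), Id2 (12.5 ± 2.14), Lef1 (11.5 ± 1.13), Klf2 (6.34 ± 1.64), Bcl6 (1.00 ± 0.55) and Prdm1 (0.515 ± 0.189) in CPM per kilobase. There only Tcf7 with Il7r and Klf2 with Bcl6 had ranges apart. Il7r stood second in CD8 cells. In CD4 cells it and Id2 had nearly equal means and changed order by the median, 7.57 for Il7r and 6.23 for Id2 in CPM per kilobase. The exon length of Tcf7 comes from version 15 of its gene model, and the count table used version 16.

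The genes whose pattern over libraries was most like each member were sought among 10487 genes by the lower of their Pearson r in the 12 CD4 and in the 12 CD8 libraries. These r are descriptions over libraries that share genotype, replicate number and depth. Il7r was closest to Lrrc8d (r = 0.95 in CD4 and 0.95 in CD8), Serpinb6b (0.96 and 0.94) and Ptpn22 (0.93 and 0.94). Klf2 was closest to Mindy2 (0.89 and 0.93), Lpin1 (0.87 and 0.93) and Neu3 (0.89 and 0.86), and Id2 to Nefh (0.93 and 0.92), Arl4a (0.90 and 0.91) and Ptprk (0.91 and 0.90). Bach2 was closest to Elk4 (0.94 and 0.93), L3mbtl3 (0.92 and 0.93) and Spata13 (0.90 and 0.93), and Foxo1 to Noct (0.93 and 0.90), Phrf1 (0.91 and 0.90) and Phc3 (0.91 and 0.90). Bcl6 was closest to Mcl1 (0.89 and 0.89), Nr4a2 (0.88 and 0.87) and Parp8 (0.86 and 0.88). For Tcf7 (Prkcb, Gsn and Txk), Lef1 (Rasgrp3 and Ripor2), Id3 (Cdc42se2, Mbp and Dpm2) and Prdm1 (Pik3ap1, Hmgn3 and Fbxl14) the lower r of each gene named lay between 0.76 and 0.81.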

How the data were processed

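The authors deposited raw counts in whole numbers for 55401 genes. Per the submitters' processing notes, Trimmomatic 0.35, STAR 2.7.1a, DESeq2 1.26.0 and GRCm38 were used. For the annotation release and the strand setting, the sources used here give nothing. Summary entries (31.6% to 35.0% of a library) were left out. The deposited table of counts divided by library factors, a normalized signal, was used in 1 alternative only.

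Counts were filtered with filterByExpr (minimum count 10), scaled by TMM (0.976 to 1.022) and tested with edgeR 4.0.16 in R 4.3.3 (quasi-likelihood F test, 2-sided, Benjamini-Hochberg). Genotypes were compared over 12 libraries per cell type (9 residual degrees of freedom), and cell types over 24 (18). This left 12719, 12612 and 13288 genes. Tested on simulated data, 97% of genes changed by 1 log2 unit were recovered in CD4 KO against WT and 94% in CD8 against CD4 WT. The simulation gave every gene the same spread, changed no gene of low counts and held no difference by replicate kind or sex. These shares therefore do not carry over to members with wide standard errors, such as Klf2 (0.70) and Il7r (0.50) in CD4 KO against WT, or to the scarce Prdm1. The labels do not say that replicates are separate animals. Both sexes occur in each group, so its libraries come from more than 1 animal, but some may share one, and p-values then measure only the spread between these samples, which may be technical. No 2 libraries of a group agreed within sampling noise (chi-square per degree of freedom at least 2.78 in 36 pairs). Same-numbered libraries deviated together in CD4 cells (r 0.132 to 0.580) and between CD8 and CD4 (0.147 to 0.451), where the block was therefore considered. There the same number gave the highest r for 2 to 4 of the 4 libraries, by pair of groups. Sex by Xist was also the same for each number in CD8 and CD4 cells of a genotype. Whether same-numbered CD8 and CD4 libraries share an animal is not stated in the labels, so pairing by number is not established. The main fits treat them as unpaired. In CD8 genotypes 8 of 12 pairs were over 0.1 (-0.226 to 0.403), which is short of every pair.

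The 10 genes, the gene lists and the rule for naming were chosen with earlier results of these data known. Named are the members, Pou2af1, the called genes of lowest p (up to 4) of each pathway list in CD8 against CD4 WT, for genotypes those of lowest p over all lists, and up to 3 genes of like pattern per member. Results for 2 genes that this rule or the text would name are not reported here. Exon lengths and overlaps came from GENCODE M21, where the gene model of Tcf7 differed from that of the count table. Promoters came from RefSeq (GRCm38.p6), which held windows for 10 of 10 members.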

Additional observations from a re-analysis of the deposited data

Results flagged for a closer look

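Of 60 groups of 4 libraries (10 genes in 6 groups), 5 held 1 library far from the other 3 by Dixon's criterion, where chance flags about 1 in 20 groups. Tcf7 was highest in CD4 Het replicate 4, at 248 CPM, where the other 3 lay between 217 and 218 CPM. Tcf7 was also highest in CD4 KO replicate 3, at 236 CPM, above 210.1 to 213.5 CPM. Prdm1 reached 5.16 CPM in CD8 WT replicate 4 against 2.49 to 2.81 CPM, and 3.83 CPM in CD8 Het replicate 3 against 2.01 to 2.17 CPM. Bcl6 reached 13.3 CPM in CD4 KO replicate 2, above 9.31 to 9.89 CPM.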

How the results depend on the processing

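Under all alternatives run, 0 differences of the 10 genes that were called reversed, and 15 of the 19 calls between CD8 and CD4 cells were kept in every alternative; the 4 others are Tcf7 in Het, Lef1 in KO and Id2 in WT and KO, described above. Changes of sign among differences called under neither setting, 141 of 1134 values between genotypes, were not counted as reversals. Between genotypes 2 values of 1134 became calls (Lef1 and Il7r in CD4 Het against WT). Calls over all genes were less steady. In CD4 Het against WT, 11 genes became 81 with DESeq2, 79 with replicates 1-2 against 3-4 as a covariate, 491 with sex added, 251 with replicates 1 and 2 alone, 56 with replicates 3 and 4 alone, 19 in 1 fit of all libraries, and 7 to 9 with 1 library left out (7 without CD4 WT replicate 3 or without CD4 Het replicate 1, 9 without CD4 WT replicate 4). In CD4 KO against Het, 2 became 7 with both covariates and 13 with replicates 3 and 4 alone. In CD8 KO against WT, 8 became 5 at a mean of 5 CPM, with replicates 1 and 2 alone and with replicates 3 and 4 alone. In CD8 Het against WT, 8 became 5 at a mean of 5 CPM and 4 with replicates 3 and 4 alone. In CD8 KO against Het, 2 became 22 with DESeq2, 242 with replicates 1 and 2 alone, 1 with replicates 3 and 4 alone and 4 without CD8 Het replicate 3. In CD8 against CD4 KO, 3198 became 1890 with its 8 libraries alone. For the difference between cell types, the single gene of KO against WT and of Het against WT became 0 at a mean of 5 CPM, with replicates 1 and 2 alone and with replicates 3 and 4 alone, and that of Het against WT became 3 with the covariate fitted in each cell type, an alternative chosen after seeing the data. The cause was not tested. With the replicate number as a block, CD4 Het against WT gave 45 calls, the difference between cell types gave 2 for Het against WT (1 without it) and 1 for KO against Het (0 without it). Among the 10 genes the block changed the calls of Tcf7, Foxo1 and Bcl6 in CD8 against CD4 Het and no other call. Depth limits Prdm1 most, with 7 to 75 counts per library.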
